A study of Drosophila melanogaster with 19 samples.

Results

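The genes described are 9 X-linked genes of Drosophila melanogaster that encode ion channels and receptors of neurons. They were taken by name, as para, Sh, cac, eag, na, shakB, Ork1, nAChRalpha3 and nAChRalpha7, out of 2197 protein-coding genes on the X chromosome. MSL2, a subunit of the dosage compensation complex, was mapped on them by chromatin immunoprecipitation sequencing (ChIP-seq), in which DNA crosslinked to a protein is pulled down with an antibody and sequenced. The groups are males of the M1[wt] line and wt males, with 1 MSL2 sample each, out of 19 samples in the series. All carry the strain label Oregon-R, and chromatin came from whole flies aged 3 days, so neurons were not separated from other cells. The series is about the N-terminus of MSL1, the scaffold subunit of the complex. The M1[wt] line stands in it beside lines whose MSL1 lacks N-terminal stretches. The sources used here do not give the state of the endogenous msl-1 gene in M1[wt] flies.

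The dosage compensation complex forms in males, binds the X chromosome at many sites inside genes and raises the transcription of X-linked genes. It is thought to land first at strong entry sites and to spread from them to transcribed genes nearby. Voltage-gated channels open when the membrane voltage changes and so make and shape the action potential. Leak channels set the resting potential. Gap junctions join neurons electrically, and nicotinic receptors open when acetylcholine, the main fast transmitter of the fly brain, binds to them. Males carry a single copy of each of these X-linked genes, and females carry a pair.

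A peak was counted for a gene when its summit lay in the gene or within 1000 bases of it. Its strength is the −log10 of the p-value from the authors' peak caller, taken as the lower value of 2 replicate calls, and a higher value means a stronger peak. Strength also rises with the number of reads, and that number is unknown, so strengths are ranked within a list only. A gene with no listed peak is not shown to be free of MSL2, because the lists hold only intervals that passed in both replicate calls. With 1 sample a group, no difference between the lines was tested, and binomial intervals cover counting error only.

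MSL2 peaks were assigned to some of the channel genes and not to others. In M1[wt] males 3 of the 9 genes carried a peak, against 52.0% of all X-linked protein-coding genes, and in wt males 4 of the 9 did, against 53.7%. With summits inside the gene alone, 3 genes had a peak in M1[wt] males, against 37.3% of all X-linked protein-coding genes, and 2 in wt males, against 39.0%. For 9 genes these counts are too small to be set apart from the shares of all X-linked genes. Sh, para and nAChRalpha3 had a peak in each list, which makes 3 of the 9 genes against 46.1% of all X-linked protein-coding genes, and eag had one in the wt list. No peak of either list was assigned to cac, na, shakB, Ork1 or nAChRalpha7. These make up 55.6% of the channel genes, while neither list had a peak at 40.4% of all X-linked protein-coding genes.

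**Figure D1:**
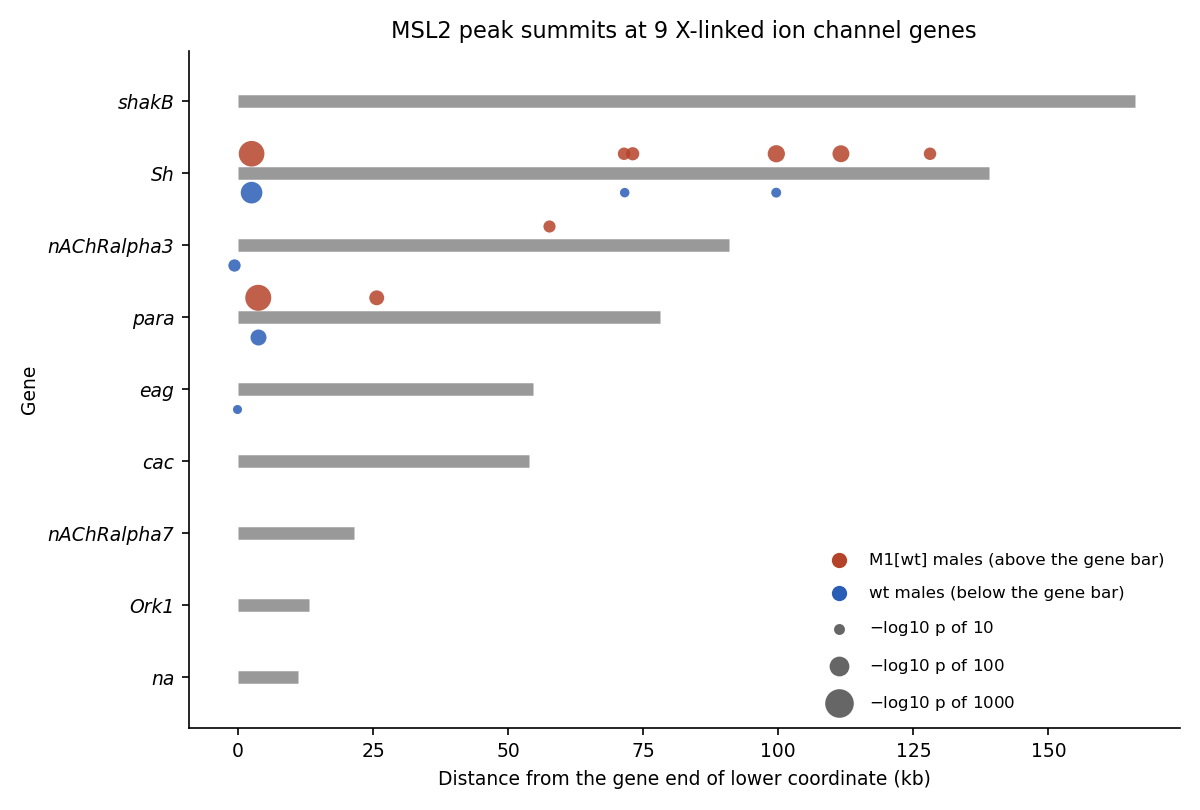
MSL2 peak summits along the 9 channel genes. Each grey bar is a gene drawn to scale from its end of lower coordinate (x axis, kb), points above it are summits in M1[wt] males and points below it summits in wt males, and point area grows with the −log10 p. Sh carries 6 and 3 summits, para 2 and 1, and 5 genes carry none.

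Many of these genes are long, so the number of peaks was set against length. The 9 genes with 1000 bases on each side cover 645.9 kb, or 2.80% of the span of annotated X genes. They held 9 of the 1595 X peaks in M1[wt] males (0.564%) and 6 of the 1615 in wt males (0.372%). That is 1.39 peaks per 100 kb in M1[wt] males and 0.929 in wt males, where the X as a whole had 6.90 and 6.99. The median gene of the list had 0 peaks per 100 kb in each line, and the median of all X-linked protein-coding genes was 3.29 in M1[wt] males and 6.06 in wt males.

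Long X-linked genes had fewer peaks per length in general. X-linked protein-coding genes of at least 50 kb outside the list, 63 in number, pooled to 2.54 peaks per 100 kb in M1[wt] males and 1.84 in wt males. The 6 channel genes of that length pooled to 1.51 and 1.01. Of these 6, 3 had a peak in M1[wt] males, against 76.2% of the others, and 4 in wt males, against 57.1%. The median channel gene of at least 50 kb had 0.538 peaks per 100 kb in M1[wt] males and 1.16 in wt males, and the median of the other genes was 1.55 and 0.969. The wt median rests on the peaks beside eag and nAChRalpha3. With summits inside the gene alone, the channel genes had a median of 0.55 per 100 kb in M1[wt] males, against 1.37 for the other genes of that length, and in wt males both medians were 0. A summit inside was then found in wt males at 2 of the 6 channel genes, against 44.4% of the others. At 11.1 and 13.2 kb, na and Ork1 are the shortest of the list. Among X-linked protein-coding genes of 5 to 20 kb, a peak was found at 70.2% in M1[wt] males and at 70.8% in wt males, and 105 of 449 had one in neither list, as na and Ork1 did.

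**Figure D2:**
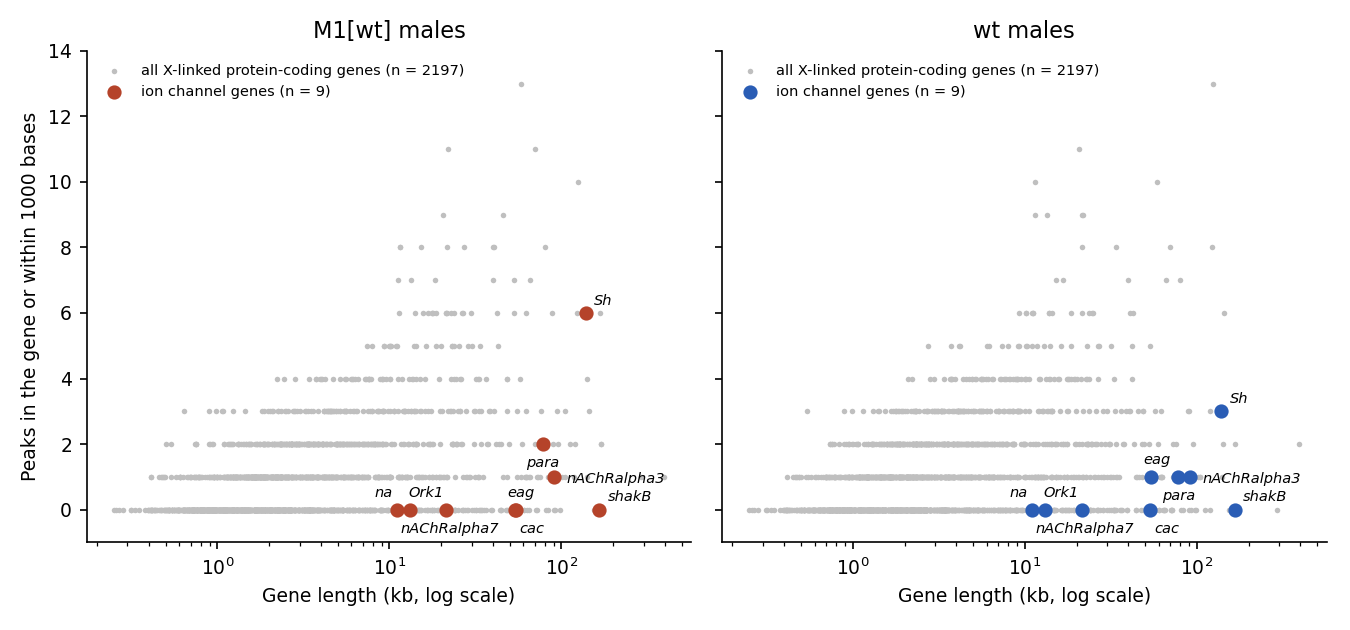
Number of MSL2 peaks per gene (y axis) against gene length (x axis, kb, log scale) for all 2197 X-linked protein-coding genes (grey) and the 9 channel genes (coloured), with M1[wt] males on the left and wt males on the right. Sh stands highest of the channel genes at 6 and 3 peaks, and shakB has 0 peaks at 165.98 kb.

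Most of the peaks lay at Sh, with 6 of 9 in M1[wt] males and 3 of 6 in wt males, and at para, with 2 and 1. These genes take up 138.9 and 78.1 kb of the 627.9 kb of the list. The gene para encodes the main voltage-gated sodium channel of the fly, the pore that carries the action potential. It lies at X:16455027-16533096 of Release 6 (dm6) and is 78.1 kb long. Its peak 3.74 kb inside the end of lower coordinate spanned X:16458575-16458968 in M1[wt] males and X:16458625-16458890 in wt males, and the summits lay 3 bases apart. In M1[wt] males it had a −log10 p of 881 and 1009.6 in the replicate calls and ranked 90 among the X peaks. In wt males the values were 64.7 and 65.2, and the rank was 355. A second peak, X:16480503-16480864, was listed in M1[wt] males alone, 25.7 kb from the same end, with a −log10 p of 48.7 and 70.0 in the calls and rank 666. The nearest wt summit to it was the one 21931 bases away in para.

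Sh encodes Shaker, the voltage-gated potassium channel of the fast inactivating A-type current. It lies at X:17924307-18063247, is 138.9 kb long and held the most peaks of the list, 6 in M1[wt] males and 3 in wt males. The strongest lay 2.51 kb inside the end of lower coordinate, at X:17926475-17927023 in M1[wt] males and X:17926578-17926996 in wt males, with summits 6 bases apart. Its −log10 p was 800.5 and 893 in the M1[wt] calls and 364 and 281 in the wt calls, and it ranked 105 and 139 among the X peaks of the lists. All 3 wt peaks of Sh overlapped an M1[wt] peak.

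The other Sh peaks were weaker and lay in the far part of the gene, from 71.5 to 128.1 kb from the end of lower coordinate. One at 51.4% of the gene length had a −log10 p of 25.7 (rank 972) in M1[wt] males and 11.9 (rank 1319) in wt males, with summits 121 bases apart. Another at 71.7% of the length had 89.1 (rank 438) in M1[wt] males and 13.3 (rank 1215) in wt males, with summits 18 bases apart. Its summit also lies in CG6867, a gene nested inside Sh, so it cannot be given to Sh alone. Peaks at 52.6%, 80.3% and 92.2% of the length were listed in M1[wt] males alone, with a −log10 p of 31.7, 82.5 and 25.8. The nearest wt summits lay 1473, 11978 and 28471 bases from them. Between the strongest peak of Sh and the next one lay 68.9 kb without a summit in M1[wt] males and 69.1 kb in wt males.

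The genes eag and cac differed from para and Sh in that no summit of either list lay inside them. The gene eag, at X:14955477-15009989, encodes the founding member of the ether-a-go-go family of voltage-gated potassium channels. Its only peak was in the wt list, X:14955252-14955869, with the summit 116 bases outside the end of lower coordinate. That peak had a −log10 p of 11.6 and 10.7 in the calls and ranked 1421 of 1615 X peaks. The nearest M1[wt] summit was 4543 bases away, with a −log10 p of 29.6 (rank 894). At cac, X:11931280-11985087, the gene of the calcium channel that triggers transmitter release at synapses, the nearest M1[wt] summits lay 10361 bases beyond the low end, in Sclp (−log10 p of 81.7), and 23990 bases beyond the high end, in CG1806 (12.6). The same genes held the nearest wt summits, 10370 and 23588 bases away, with a −log10 p of 80.1 and 10.7. The peaks on both sides of cac thus lay at like distances in the lists, and 88.2 kb in M1[wt] males and 87.8 kb in wt males lay between them.

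The leak channel genes had no peak in either list. The gene na encodes the sodium leak channel narrow abdomen, which is needed for daily rhythms of activity, and lies at X:14266367-14277416. Its nearest summits were 28063 bases away in M1[wt] males and 28047 in wt males, both in Dus2, with a −log10 p of 132 and 79.3. Ork1, at X:10878054-10891250, encodes an open rectifier potassium leak channel. Its nearest summits were in CG1637 in both lists, 4712 bases away in M1[wt] males (−log10 p of 18.7, rank 1195) and 2956 bases away in wt males (14.5, rank 1154). Strong peaks lay not far from Ork1, since the strongest within the next 50 kb had a −log10 p of 4392 in M1[wt] males and 2918 in wt males.

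The gap junction gene shakB, which encodes the innexin of the electrical synapses in the giant fiber escape circuit, had the widest empty stretch. It lies at X:20761071-20927050, is the sixth longest X-linked protein-coding gene at 165.98 kb and was the longest of the 49 X-linked genes of at least 20 kb with no peak in either list. The nearest summits lay 104116 bases beyond its low end and 100897 beyond its high end in M1[wt] males, and 104125 and 100900 in wt males. The stretch between them was 371 kb in each list. It was number 4 in width among the 1594 gaps between neighbouring X summits in M1[wt] males and number 5 among the 1614 in wt males. The flanking summits lay at nearly the same positions in both lists, in asRNA:CR45466 (−log10 p of 23.0 in M1[wt] males and 16.9 in wt males) and in CG1532 (178 and 47.1).

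The nicotinic receptor genes encode subunits of the channels that acetylcholine opens. At nAChRalpha3, X:8276200-8367169, each list had 1 peak, and they were different peaks. The M1[wt] peak, X:8333691-8334155, lay 57.6 kb inside the gene with a −log10 p of 23.7 and 25.9 in the calls (rank 1017), and the nearest wt summit was 58385 bases away. The wt peak, X:8274783-8275586, had its summit 767 bases outside the low end, within CG1636, with a −log10 p of 26.1 and 24.7 (rank 725). An M1[wt] peak, X:8273503-8275602, overlapped it with a −log10 p of 34.8, but its summit lay 1554 bases from nAChRalpha3, past the 1000 bases allowed. The count of 1 in each line therefore does not stand for a peak at the same place. At nAChRalpha7, X:19327075-19348447, no summit was assigned. The nearest lay 3371 bases from it in M1[wt] males (−log10 p of 51.9) and 3374 in wt males (35.3). On the other side an M1[wt] summit of 11.4 lay 4793 bases away, in kek5, while the nearest wt summit there was 128349 bases away.

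In order of density in M1[wt] males, Sh had 4.26 peaks per 100 kb, para 2.50 and nAChRalpha3 1.08, and the other 6 had 0. In wt males the order was Sh with 2.13, eag with 1.77, para with 1.25 and nAChRalpha3 with 1.08, and the other 5 had 0. In wt males eag, para and nAChRalpha3 each rest on a single peak and are not told apart by it. Of the 198 X-linked genes of at least 20 kb, 110 had a lower density than Sh in M1[wt] males and 93 in wt males, so Sh sat near the middle of that class. The median length of that class is 36.4 kb, while Sh is 138.9 kb long. Set beside the 63 other genes of at least 50 kb, Sh was above the median density of 1.55 in M1[wt] males and 0.969 in wt males.

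The surroundings of the channel genes carried more peaks than the genes themselves. In the 50 kb next to each gene on either side, starting 1000 bases from it, lay 91 peaks in M1[wt] males and 100 in wt males over 900 kb, or 10.1 and 11.1 per 100 kb. These flanks were denser than the gene for 8 of the 9 genes in each list. The exception was shakB, whose flanks also held no peak. For cac the flanks had 15 peaks per 100 kb in M1[wt] males and 20 in wt males, and for para they had 18 and 20. The pattern was common among long genes. Of the 63 other X-linked genes of at least 50 kb, the flanks were denser at 85.7% in M1[wt] males and 88.9% in wt males, with a median of 9 and 8 peaks per 100 kb in the flanks. The flanks were chosen as a comparison after the peaks had been seen.

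**Figure D3:**
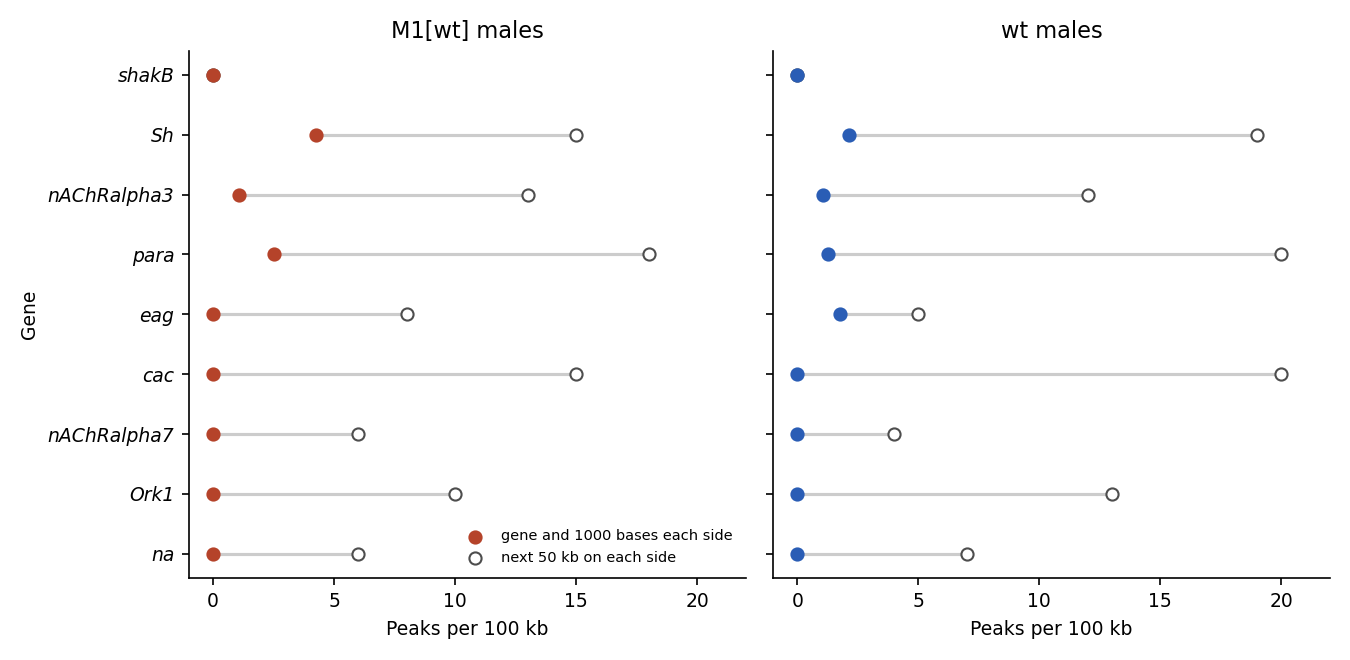
MSL2 peaks per 100 kb (x axis) in each channel gene with 1000 bases on each side (filled points) and in the next 50 kb on each side (open points), with M1[wt] males on the left and wt males on the right. The open points lie to the right of the filled ones for every gene but shakB, where both are 0.

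Peaks at the channel genes were spread over the range of strengths. Their −log10 p ran from 23.7 to 881 with a median of 48.7 in M1[wt] males, where the other X peaks had a median of 36.6. In wt males it ran from 10.7 to 281 with a median of 18.99, against 22.2 for the other X peaks. With summits inside the gene alone the wt median was 39.0, above that of the other X peaks, so its side is not settled by 6 peaks. Above the median of all X peaks were 5 of 9 in M1[wt] males and 3 of 6 in wt males. The peaks near the low ends of para and Sh were the strongest of the list in both lines, in the order para and Sh in M1[wt] males and Sh and para in wt males.

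The peaks with summits inside the genes were narrow for their strength, to an unlike degree. Of all peaks at the channel genes, 9 of 9 in M1[wt] males were narrower than the median X peak, at 281 to 549 bases against 837. In wt males 5 of 6 were narrower than the median of 790, and the 6 ran from 210 to 804 bases. The para peak of rank 90 in M1[wt] males was 394 bases wide, while the X peaks within 50 ranks of it had a median width of 1713 bases, and 1 of those 100 was narrower. The strongest Sh peak in M1[wt] males was 549 bases wide where the X peaks within 50 ranks had a median of 1615, and 8 of those 100 were narrower. In wt males the para peak was 266 bases wide against a median of 939, and 2 of 100 were narrower. The strongest wt peak of Sh was 419 bases wide against 1214.5, and 7 of 101 were narrower. For the weaker inside peaks in M1[wt] males, the narrower neighbours ran from 1 of 99 (Sh, rank 466) to 17 of 101 (Sh, rank 972). For the weaker wt peaks of Sh they were 0 of 98 (rank 1215) and 15 of 100 (rank 1319). Among the 200 strongest X peaks, 12.5% in M1[wt] males and 15% in wt males were under 600 bases wide. The wt peaks with summits outside the genes were not narrow in this sense. The eag peak was 618 bases wide where X peaks within 50 ranks had a median of 530, and the nAChRalpha3 peak was 804 bases wide against 819. Peaks inside other genes of at least 50 kb, more than 500 bases from the ends, were also narrow, with a median of 551 bases in M1[wt] males (n = 128) and 576.5 in wt males (n = 90). Width was looked at after the peaks had been seen.

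**Figure D4:**
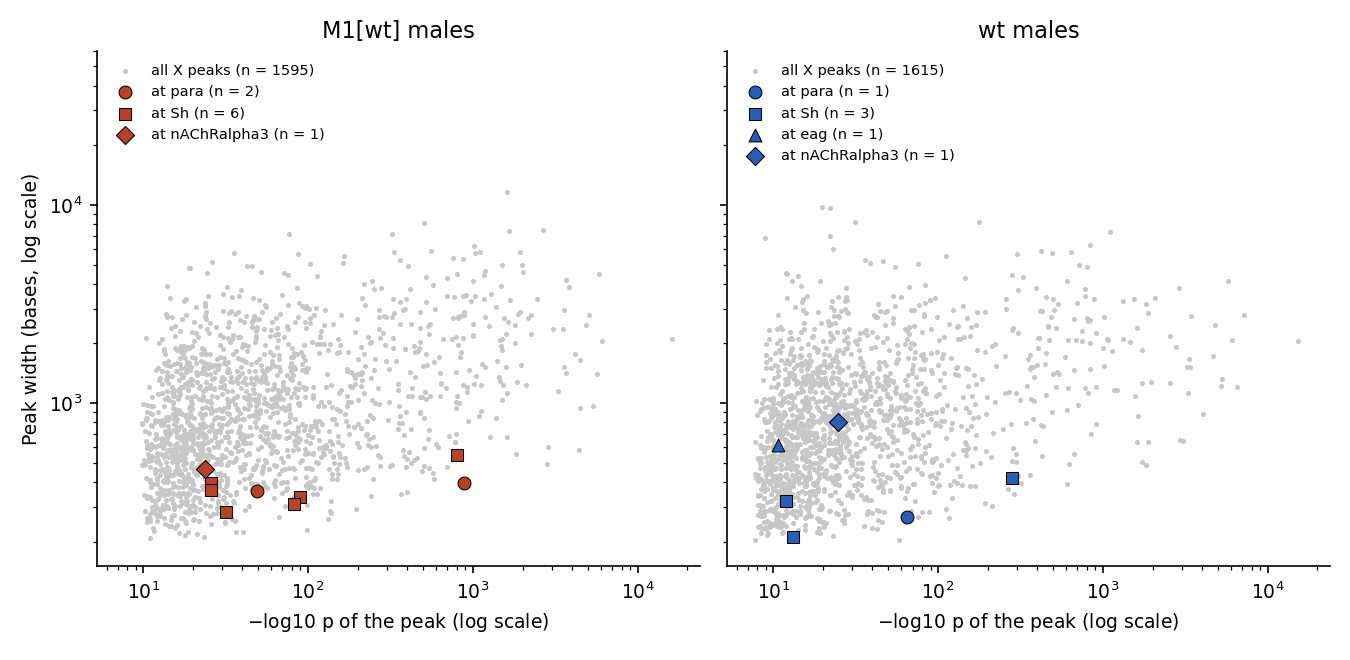
Peak width (y axis, bases, log scale) against −log10 p (x axis, log scale) for all X peaks (grey) and the peaks at channel genes (coloured, by gene), with M1[wt] males on the left and wt males on the right. The para and Sh peaks lie low in the cloud, at 281 to 549 bases in M1[wt] males and 210 to 419 bases in wt males.

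Summits were then sorted by whether they lay in the gene away from its ends. In M1[wt] males all 9 (100%, exact Clopper-Pearson 95% interval 66.4 to 100%) were inside the gene and more than 500 bases from its ends. In wt males 4 of 6 were (66.7%, 22.3 to 95.7%), and 2 of these lay near the low ends of para and Sh, at 4.79% and 1.80% of the gene length. Among peaks at the 191 other X-linked genes of at least 20 kb, 83.6% of 456 in M1[wt] males and 77.1% of 363 in wt males lay so. Those genes have a median length of 35.1 kb, while every channel gene with a peak is at least 50 kb long. The comparison is thus between genes of unlike length. The gene table used gives neither strand nor exons, so gene starts cannot be told from gene ends here, nor introns from exons.

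Agreement between the lists at the channel genes rested on few peaks. Of the 9 M1[wt] peaks, 4 overlapped a wt peak (44.4%, exact 95% interval 13.7 to 78.8%), against 73.0% of 1586 other X peaks. Of the 6 wt peaks, 5 overlapped an M1[wt] peak (83.3%, 35.9 to 99.6%), against 75.4% of 1609. Both intervals include the value of the other X peaks. Like the intervals for position above, they treat peaks as independent, although 6 of the 9 M1[wt] peaks and 3 of the 6 wt peaks lay at Sh. Inside the other genes of at least 50 kb the shares were 50.8% of 128 peaks in M1[wt] males and 77.8% of 90 in wt males. The 4 M1[wt] peaks with a wt partner were those with −log10 p values of 881, 800.5, 89.1 and 25.7, and those without had 82.5, 48.7, 31.7, 25.8 and 23.7. The weakest shared peak was thus no stronger than 4 of the 5 without a partner. Among the 5 shared wt peaks was that beside nAChRalpha3, whose M1[wt] partner had its summit 787 bases away. With summits within 250 bases, or with a reciprocal overlap of 50%, the wt share at the channel genes was 66.7%.

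Other ion channel genes and channel partners were looked up from a list of 67 names, of which 65 matched a gene. On the X 9 of 18 had a peak in M1[wt] males, against 52.0% of all X-linked protein-coding genes, and 8 of 18 in wt males, against 53.7%. A peak in both lists was found at 6 of the 18, against 46.1% of all X-linked protein-coding genes, and a peak in neither at 7, against 40.4%. Among these 18 X-linked genes, the strongest peak in M1[wt] males was at Lcch3, a GABA receptor subunit gene (−log10 p of 503, rank 152). Next came Hk, which encodes the beta subunit of the Shaker channel (191, rank 280), and Ca-alpha1T, the T-type calcium channel gene (156, rank 306). In wt males the strongest of the 18 were at Lcch3 (138, rank 200), Ca-alpha1T (45.8, rank 465) and iav, a TRP channel gene of hearing (38.8, rank 527). Ca-alpha1T, at 88.4 kb of a length like that of para and nAChRalpha3, had 6 peaks in M1[wt] males and 3 in wt males, or 6.64 and 3.32 per 100 kb. Hk had 5 peaks in 30.1 kb in M1[wt] males and 1 in wt males. The other X-linked genes of the list that are at least 20 kb long had 3 peaks or fewer. Cngl, a cyclic nucleotide-gated channel-like gene of 55.2 kb, had 3 in M1[wt] males and 1 in wt males. SK, the gene of a calcium-activated potassium channel, had 1 and 0 in 64.9 kb, and Nmdar2, a glutamate receptor subunit gene, had 0 in both lists in 24.2 kb. On the autosomes 8 of 47 had a peak in M1[wt] males, against 24.1% of autosomal protein-coding genes, and 9 of 47 in wt males, against 22.3%. The strongest peak at any of the looked-up genes was autosomal, at KCNQ, with a −log10 p of 1229.5 in M1[wt] males and 1203 in wt males. It was stronger than the Lcch3 peak and every peak at the 9 channel genes. HisCl1 came next among the autosomal genes, at 292 and 176, with its summit outside the gene.

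The X-linked genes of at least 20 kb outside these lists whose peaks per 100 kb were nearest to the pooled values of the 9 channel genes were X11Lbeta, trol and Fas2, by Euclidean distance over the 2 lists (0.329, 0.382 and 0.406 peaks per 100 kb). X11Lbeta encodes an adaptor protein, trol the matrix protein perlecan and Fas2 a neuronal adhesion molecule. Each had 1 peak in M1[wt] males and 1 in wt males, at 1.17 to 1.33 peaks per 100 kb.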

How the data were processed

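MSL2 ChIP-seq peak lists of 1 M1[wt] male sample and 1 wt male sample were used, grouped by sample title. Per the submitters' processing notes, the tools were MACS2, Bowtie2, cutadapt, Picard and deepTools and the builds dm6 and dm3, with roles and caller settings not stated there. The deposited file names give a male preimmune sample as the control of each list. The deposited lists (3944 and 3799 rows, 20 columns) follow the layout of the irreproducible discovery rate (IDR) method for 2 replicate calls. The labels do not say whether these calls are separate libraries, so they were not used as replicates. The authors' deposited −log10 p was the lower of the calls' values in all rows, and deposited −log10 IDR values limit the lists to a global IDR of 0.05. The deposited score, a scaled IDR, was not used. Read depth is unknown.

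Peaks outside the 6 main chromosome arms were left out (9 in M1[wt] and 11 in wt males). Symbols and positions came from a RefSeq table of the Release 6 assembly (dm6 sequence names), with coordinates given 1-based. Peak positions were used as deposited and not moved between builds, so every gene assignment rests on the lists being in dm6. All 9 genes matched. Overlap means at least 1 shared base. The table has no strand, so the planned position along transcription was replaced by distance from the end of lower coordinate. Sequences were not used here. The members, lists and tests were chosen with earlier results of these data known. The rule for named genes took all members with their strongest peaks, the 3 other X-linked channel genes with the strongest peak per list, and the 3 long genes nearest in density. Genes beside members and the autosomal channel genes were named after their values were seen. Gene assignment, tested on simulated data, found 100% of 200 X genes given a simulated summit. This checks the lookup of coordinates only, and not which of several nested or neighbouring genes a peak belongs to. Python 3.11.15, pandas 2.3.3 and SciPy 1.17.1 were used.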

Additional observations from a re-analysis of the deposited data

How the results depend on the processing

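Of 38 recalculations of the 12 values given per list (members with a peak, peaks, density, median strength, share inside, share in both lists), 35 stayed within 1.5 times the count or density given, or within the 95% interval of the share or median. The alternatives were summits inside the gene, a global IDR of 0.01 or less, interval overlap with the gene, the first replicate call, 200 bases from a gene end, reciprocal overlap of 50% and summits within 250 bases. The global IDR of 0.01 removed no peak at the channel genes in either list. Counting summits inside the gene removed none in M1[wt] males. Such recalculations show little about stability, so the count of 35 overstates it. The 35 also include the wt peak count, which fell from 6 to 4, at the 1.5-fold limit. The exceptions came from counting only summits inside the gene, in wt males. This dropped the peaks beside eag and nAChRalpha3 and left 2 members with a peak, with 100% of the peaks away from the gene ends and 100% shared with the M1[wt] list. The wt median strength moved under it to 39.0, against 18.99 with the peaks beside the genes, and so passed the 22.2 of the other X peaks, although it stayed within the wide interval of a median of 6 values. All values in M1[wt] males stayed within those limits. No paired analysis was possible because each line has 1 sample and no test was made. The counts of 9 and 6 peaks and the unknown read depth limit every share and density, and 1 peak more or less changes the order of eag, para and nAChRalpha3 in wt males.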
